A study of Mus musculus with 40 samples.

Results

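The proteasome is the protease complex that degrades proteins tagged with ubiquitin. The transcripts of its subunits and assembly factors were followed in mouse extensor digitorum longus (EDL), a fast hindlimb muscle. Members were all genes whose symbol is Psma, Psmb, Psmc, Psmd, Psme, Psmf or Psmg followed by a number. The table listed 47 such genes among 22844. Of these, 46 passed the filter of 1 CPM (the count of a gene scaled to the size of its library) in at least 5 libraries and were tested among 13543 genes. The remaining member, Psma8, a testis form of an alpha subunit, had 0 to 5 counts per library.

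The study asked what sustained activity of the growth-promoting kinase complex mTORC1 does in muscle fibers. TSCmKO mice lack Tsc1, an inhibitor of mTORC1, in muscle fibers. Controls (CON, genotype label Tsc1fl/fl) were littermates that carried the floxed gene without Cre recombinase, and all groups carried the strain label Tsc1tm1Djk/J. Mice were 3 or 9 months old and received vehicle or the mTORC1 inhibitor rapamycin (+RM) by intraperitoneal injection over 3 days, which gave the 8 groups 3mCON, 3mCON+RM, 3mTSCmKO, 3mTSCmKO+RM, 9mCON, 9mCON+RM, 9mTSCmKO and 9mTSCmKO+RM with 5 libraries each, 1 per mouse by the study's account. The sources used here do not name the Cre driver or the sex of these mice. They also disagree on the rapamycin dose, which the labels give as 4 mg/kg.

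The core particle (20S) is a stack of outer alpha and inner beta rings, and the beta subunits Psmb5, Psmb6 and Psmb7 carry the proteolytic sites. The regulatory particle (19S) caps it. Its base holds the ATPases Psmc1 to Psmc6, which unfold substrates, and its lid removes ubiquitin. Other caps are PA28, made of Psme1 and Psme2, and PA200, encoded by Psme4. In immune and interferon-treated cells Psmb8, Psmb9 and Psmb10 replace the proteolytic subunits and form the immunoproteasome. In muscle the ubiquitin-proteasome system is best known for the breakdown of contractile proteins in atrophy. The transcription factor Nfe2l1 (Nrf1) raises proteasome genes through antioxidant response elements.

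Libraries held 8883870 to 35224669 estimated counts. Tsc1 was 83.5 ± 27.9 CPM in 9mCON and 28.6 ± 4.34 CPM in 9mTSCmKO (SD, n = 5 each), and 117 ± 19.7 against 29.3 ± 1.88 CPM at 3 months. The groups did not overlap at either age (log2 fold change -1.55 ± 0.17 SE, adjusted p = 2.33e-09 at 9 months and -1.99 ± 0.17, 2.49e-11 at 3 months). The sum of 6 muscle fiber markers ranged from 104000 to 124000 CPM in 9mCON, from 73300 to 89600 CPM in 9mTSCmKO and from 108000 to 124000 CPM in 9mTSCmKO+RM. The single markers did not all follow the sum. In 9mTSCmKO+RM 1 of the 6 was higher and 1 lower than in 9mCON (edgeR adjusted p under 0.05). In 6 libraries most of the members had their group's highest value, above all in 9mTSCmKO replicate 3 (36 of 46 members) and 9mCON replicate 2 (33 of 46). Fits without these 6 libraries were added after seeing the data. The members' own values chose the 6, so such fits are no independent check. In whole muscle, fewer cells of a type and less RNA per cell cannot be told apart.

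Levels between genes are compared in TPM, a share of all transcripts that corrects for transcript length. The highest means over the 40 libraries were those of Psme4 (364 TPM), Psma3 (358), Psmc3 (330), Psmd8 (329) and Psmc1 (307). For Psme4 this pools unlike groups, from 207 TPM in 9mCON and 283 in 3mCON to 839 in 3mTSCmKO, and in both control groups Psma3 was the highest member (407 and 365 TPM). The lowest tested members were Psmb9 (2.04 TPM), Psmb8 (3.94), the assembly chaperones Psmg4 (4.36) and Psmg3 (6.46), and Psmd10 (9.24). The summed level of the 46 members was 6143 ± 253 TPM in 9mCON and 8579 ± 888 TPM in 9mTSCmKO (SD, n = 5), and 5761 ± 345 against 7107 ± 720 TPM at 3 months. With rapamycin the sums were 8139 ± 550 TPM in 9mTSCmKO+RM and 6933 ± 484 TPM in 3mTSCmKO+RM. Without Psme4 the 3-month sums were 5478 ± 349 TPM in 3mCON, 6268 ± 559 in 3mTSCmKO and 6546 ± 456 in 3mTSCmKO+RM, so the mean with rapamycin was then the higher one.

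**Figure D1:**
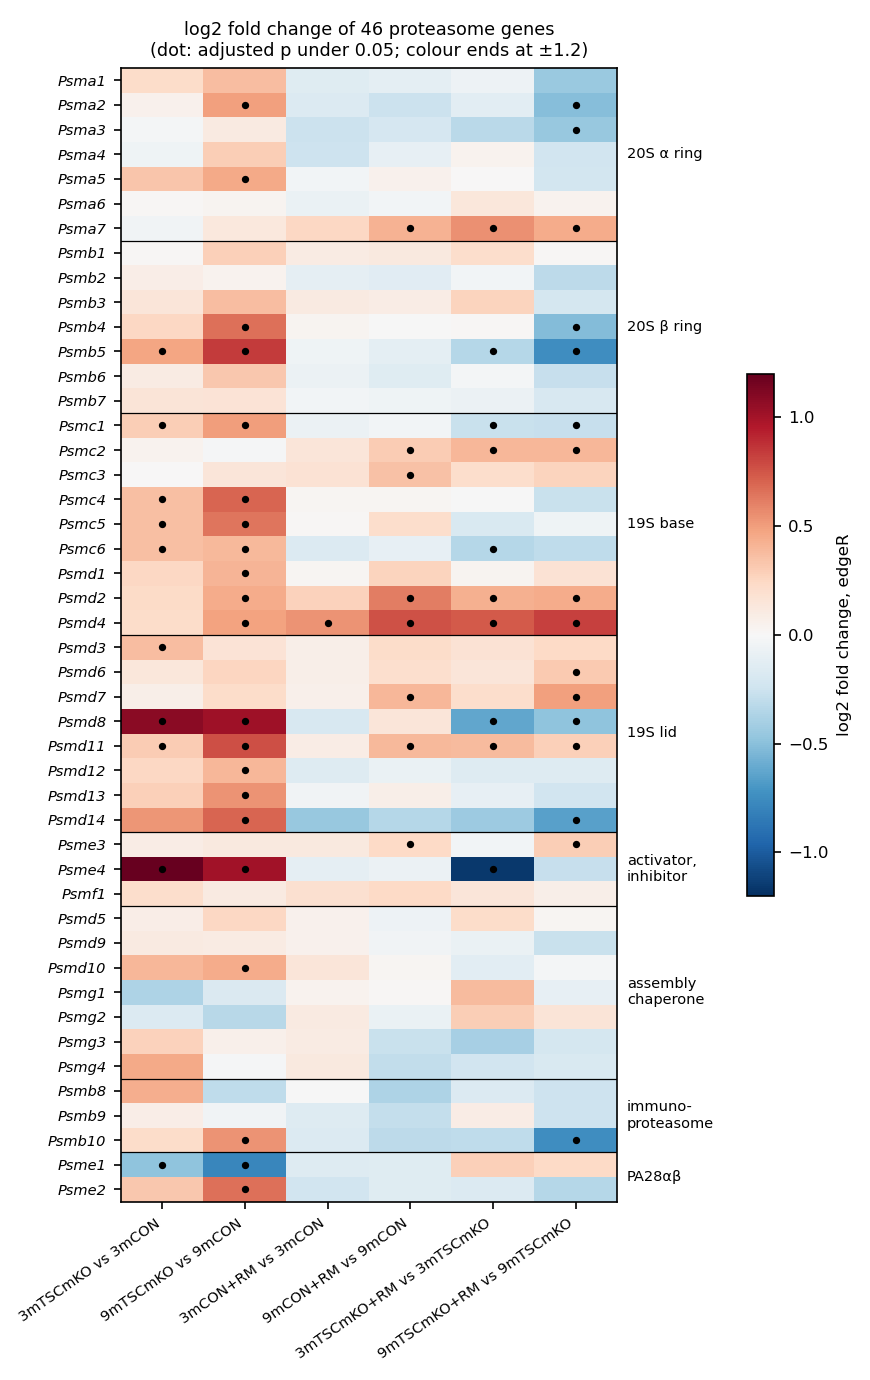
Log2 fold change (colour, edgeR) of the 46 tested members (rows, grouped by their part of the proteasome) in 6 comparisons (columns). A dot marks an adjusted p under 0.05, and Psme4 in 3mTSCmKO lies beyond the end of the colour scale at 1.60. Both genotype columns are mostly red, while the rapamycin columns hold both colours and share the rise of Psmd4.

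At 9 months 20 of 46 proteasome genes were higher and 1 was lower in 9mTSCmKO than in 9mCON (edgeR quasi-likelihood test, Benjamini-Hochberg adjusted p under 0.05). Of all tested genes 19.1% were called higher and 18.9% lower. The median log2 fold change was 0.31 over the members and -0.02 over all genes. The 19S particle held most of these calls, with 7 of 9 base genes and 5 of 8 lid genes higher. In the core particle 2 of 7 alpha genes (Psma2, Psma5) and 2 of 7 beta genes (Psmb4, Psmb5) were higher. With only these 2 groups in the fit 11 were higher and 1 lower, and Psmd2, Psme2, Psmb10, Psmc6 and Psmd14 were among the calls lost, while without the 6 libraries 23 were higher and 1 lower. Markers of other cells moved with the genotype: 3 of 4 fibroblast, 3 of 4 tendon, 2 of 3 adipocyte and 2 of 4 endothelial markers were lower (median log2 fold change -0.95, -1.87, -1.84 and -0.43), as were 4 of 6 muscle fiber markers, and 1 of 10 leukocyte markers was higher. Their sums were 769 to 1480, 83.0 to 497, 5.87 to 13.3 and 202 to 335 CPM in 9mCON and 296 to 910, 58.6 to 135, 1.38 to 4.96 and 195 to 296 CPM in 9mTSCmKO. No marker of these lists was at 0, and their part in the result was not tested.

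Psmd8 (Rpn12), a lid subunit, was the member with the largest rise at 9 months. Its CPM in the 5 libraries of 9mCON was 164, 246, 183, 199 and 197, and in 9mTSCmKO it was 332, 332, 501, 382 and 458. The groups did not overlap (log2 fold change 1.02 ± 0.13 SE, adjusted p = 2.52e-08). At 3 months the CPM was 135, 136, 192, 157 and 127 in 3mCON and 325, 346, 281, 309 and 321 in 3mTSCmKO, again without overlap (1.08 ± 0.13, 2.11e-08). The test of a different genotype effect at 9 and 3 months gave -0.06 ± 0.18 (adjusted p = 0.88).

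Psmb5, which carries the chymotrypsin-like site, was the only 1 of the 3 constitutive proteolytic subunits called between the genotypes at either age. Its CPM was 68.0, 82.8, 61.8, 64.3 and 59.2 in 9mCON and 107, 102, 151, 112 and 128 in 9mTSCmKO, so every knockout library lay above every control library (0.84 ± 0.11, adjusted p = 6.13e-08). At 3 months it was 48.6, 49.5, 47.3, 55.4 and 64.8 in 3mCON and 70.0, 81.2, 67.9, 72.6 and 76.0 in 3mTSCmKO (0.47 ± 0.11, 0.0012). Psmb6, with the caspase-like site, had 104 ± 18.8 CPM in 9mCON and 130 ± 34.1 CPM in 9mTSCmKO (0.32 ± 0.14, adjusted p = 0.058). Psmb7, with the trypsin-like site, had 171 ± 27.7 and 191 ± 22.4 CPM (0.16 ± 0.11, 0.24). Neither passed the threshold, and the groups overlapped for both.

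**Figure D2:**
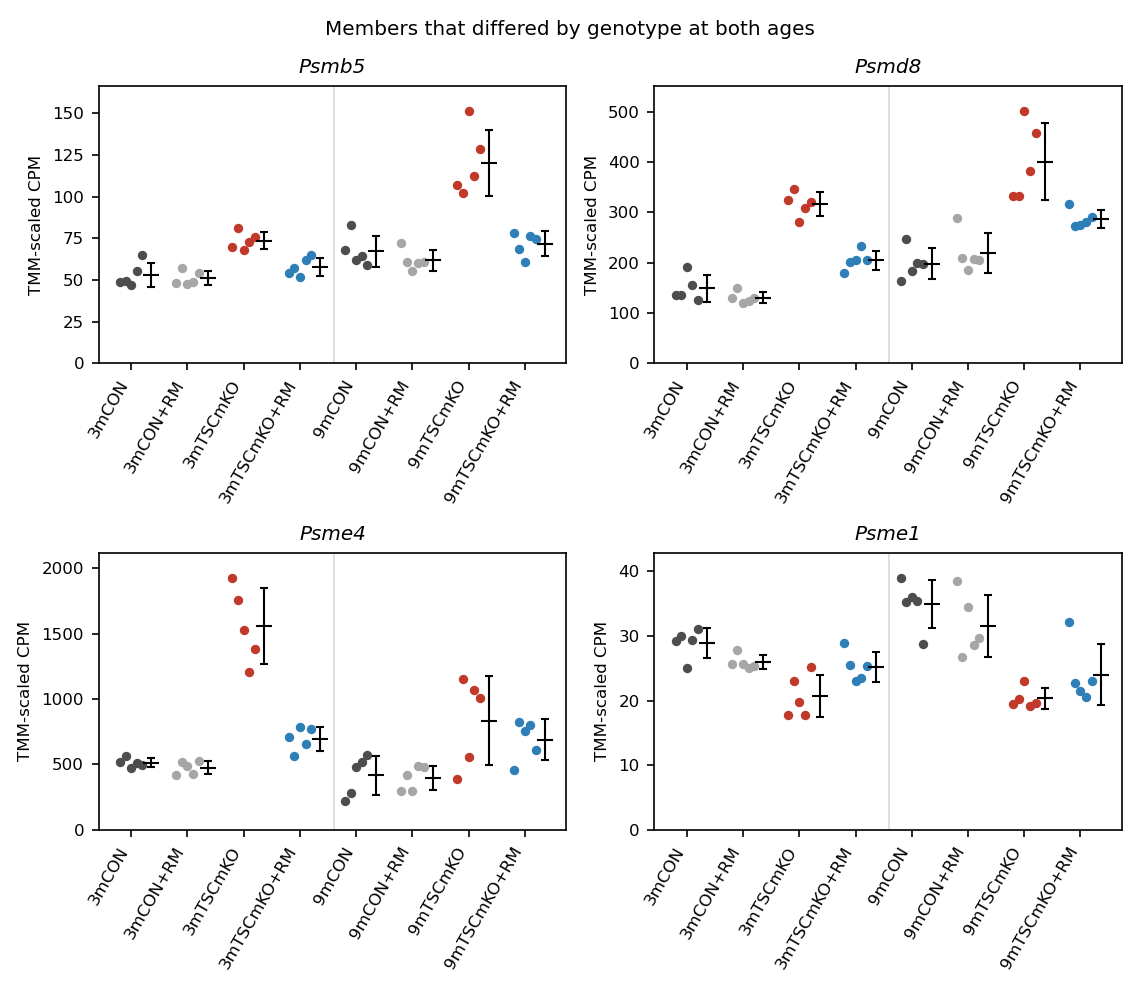
TMM-scaled CPM of Psmb5, Psmd8, Psme4 and Psme1 in every library (points) of the 8 groups on the horizontal axis, with the mean and SD of 5 libraries beside them. Vehicle TSCmKO libraries (red) lie above vehicle CON libraries (dark grey) for Psmb5 and Psmd8 at both ages and below them for Psme1 at 9 months.

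Psme4 encodes PA200, a cap that opens the core particle without ATP. It had the largest genotype difference of all members at 3 months. The CPM was 521, 563, 471, 513 and 498 in 3mCON and 1927, 1755, 1529, 1204 and 1381 in 3mTSCmKO, with no overlap (1.60 ± 0.23, adjusted p = 1.53e-06). At 9 months it was 224, 285, 483, 518 and 571 in 9mCON and 387, 1153, 559, 1068 and 1006 in 9mTSCmKO, where 2 knockout libraries fell within the control range (1.0 ± 0.23, 0.00058). The difference between the genotype effects at the 2 ages was -0.60 ± 0.32 (adjusted p = 0.30).

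The PA28 subunits moved in opposite directions at 9 months. Psme1 was the only member called lower in TSCmKO. Its CPM was 39.0, 35.3, 36.1, 35.5 and 28.8 in 9mCON and 19.6, 20.2, 23.1, 19.2 and 19.6 in 9mTSCmKO, without overlap (log2 fold change -0.78 ± 0.11, adjusted p = 8.50e-07). At 3 months it was 29.0 ± 2.33 against 20.7 ± 3.29 CPM, with 1 library of each group overlapping (-0.48 ± 0.11, 0.0018). Psme2, its partner in the ring, had 20.9, 33.4, 15.8, 16.7 and 15.2 CPM in 9mCON and 30.6, 24.2, 47.1, 25.8 and 33.3 CPM in 9mTSCmKO (0.66 ± 0.18, 0.0043), with 9mCON replicate 2 inside the knockout range. Both genes lie on chromosome 14 with 5912 bases between them (GENCODE annotation of GRCm38).

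Among the other 19S genes, the ATPases Psmc4 and Psmc5 rose by 0.70 ± 0.13 and 0.65 ± 0.12 at 9 months (adjusted p = 2.57e-05 and 6.09e-05). The lid subunit Psmd11 (Rpn6), known to stabilise the junction of core and cap, was 124, 104, 117, 124 and 119 CPM in 9mCON and 192, 188, 214, 218 and 190 CPM in 9mTSCmKO, far apart (0.77 ± 0.11, 5.88e-07). Psmd14 (Rpn11), the deubiquitinase of the lid, rose by 0.69 ± 0.21 (0.0094). This call was lost without 9mTSCmKO replicate 3, which had 401 CPM where the others had 176 to 266 (0.45, adjusted p = 0.080). In the controls 9mCON replicate 2 was high too (264.6 CPM, others 107 to 130). Both are among the 6 libraries, and without the 6 the call held. Psmc6 likewise lost its call without 9mTSCmKO replicate 4 (0.31, adjusted p = 0.057 against 0.39, 0.012).

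At 3 months 9 members were called higher and 1 lower, where 11.4% of all genes were higher and 8.32% lower. The median over the members was 0.22, and over all genes -0.02. The 9 were Psmb5, Psmd8, Psme4, Psmd3, Psmd11 and the ATPases Psmc1, Psmc4, Psmc5 and Psmc6. All but Psmd3 were also called higher at 9 months. The overlap over all genes was not counted. Of the members, 88.9% of the 9 and 40% of the 20 were shared. Of these, Psmd11 lost its 3-month call in 6 of 10 fits without 1 library (3mCON replicate 1, 2, 3 or 4, 3mTSCmKO replicate 1 or 2) and Psmc6 in 5 of 10 (3mCON replicate 1, 2 or 3, 3mTSCmKO replicate 1 or 4), and both lost it with upper-quartile scaling, with no low-count filter and in limma. The count was 5 or 6 without 3mCON replicate 1 or 3 or without 3mTSCmKO replicate 1 or 2. Without the 6 libraries it was 17 higher and 2 lower. Of these 6 only 3mCON replicate 5 is in this comparison, so that setting left out a high control library and no knockout library. For none of the members did the genotype effect pass the test of a difference between 9 and 3 months in edgeR, where 5 had an unadjusted p under 0.05, and DESeq2 and limma called 1 and 2. Of all genes 4.94% passed that test.

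The antioxidant response element was looked for in the promoters as the letters TGACNNNGC on either strand, and the CCAAT box as CCAAT. RefSeq promoter windows (GRCm38.p6, 250 bases before to 50 after the annotated start) were matched for 39 of the 46 members. The element was in 6 of them (15.4%) and in 14.0% of all 27025 gene windows, and CCAAT was in 13 (33.3%) and in 41.1%. Psmb5 and Psme4 were among the 6. The windows of Psmb5 (chr14:54617946-54618245, minus strand), Psme4 (chr11:30771525-30771824, plus strand), Psmd8 (chr7:29180624-29180923, minus strand) and Psmd4 (chr3:95042565-95042864, minus strand) are shown because the genotype and rapamycin results turn on these genes. They read 5′ to 3′ on the gene's strand with matches to either motif in capitals. The Psmd8 window has neither motif, and a match is a description of letters, not of a bound site.
Psmb5: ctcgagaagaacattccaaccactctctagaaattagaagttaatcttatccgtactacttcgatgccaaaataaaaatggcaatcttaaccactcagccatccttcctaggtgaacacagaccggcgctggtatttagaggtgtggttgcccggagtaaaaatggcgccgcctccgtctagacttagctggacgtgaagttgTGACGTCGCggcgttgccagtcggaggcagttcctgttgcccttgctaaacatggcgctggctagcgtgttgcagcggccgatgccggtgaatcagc
Psme4: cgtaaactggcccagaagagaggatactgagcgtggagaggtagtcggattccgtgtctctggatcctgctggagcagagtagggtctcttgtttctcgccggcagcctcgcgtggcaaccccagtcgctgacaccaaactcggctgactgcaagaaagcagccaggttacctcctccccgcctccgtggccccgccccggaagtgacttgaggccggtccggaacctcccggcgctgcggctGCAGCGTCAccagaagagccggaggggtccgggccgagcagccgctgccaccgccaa
Psmd8: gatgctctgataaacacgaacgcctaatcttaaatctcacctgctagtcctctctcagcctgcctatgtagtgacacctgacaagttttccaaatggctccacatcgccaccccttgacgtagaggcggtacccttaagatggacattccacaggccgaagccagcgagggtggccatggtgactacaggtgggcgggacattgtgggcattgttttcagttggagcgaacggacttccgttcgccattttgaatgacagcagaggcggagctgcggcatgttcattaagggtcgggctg
Psmd4: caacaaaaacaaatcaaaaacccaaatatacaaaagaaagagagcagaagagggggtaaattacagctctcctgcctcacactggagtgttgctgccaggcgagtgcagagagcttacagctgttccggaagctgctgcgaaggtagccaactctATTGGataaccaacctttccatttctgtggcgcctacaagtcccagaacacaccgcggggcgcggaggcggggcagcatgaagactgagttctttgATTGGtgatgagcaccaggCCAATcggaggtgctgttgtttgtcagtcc

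Nfe2l1 itself was higher in TSCmKO. Its CPM was 580, 650, 835, 910 and 1037 in 9mCON and 1272, 1761, 965, 1805 and 1421 in 9mTSCmKO (0.85 ± 0.14, adjusted p = 6.99e-06), with 1 library of each group overlapping, and 3mTSCmKO lay wholly above 3mCON (1429 ± 118 against 838 ± 105 CPM, 0.77 ± 0.14, 6.80e-05). It was lower in 3mTSCmKO+RM than in 3mTSCmKO (-0.86 ± 0.14, 1.20e-05), while at 9 months rapamycin gave -0.26 ± 0.14 (adjusted p = 0.15). Ddi2, the protease that activates Nfe2l1, was higher in 3mTSCmKO (0.54 ± 0.16, 0.013) and fell with rapamycin at 3 months (-0.90 ± 0.16, 5.55e-05) and 9 months (-0.59 ± 0.16, 0.0051). Of the 4 tested genes of this group, 2 were called higher in TSCmKO at each age, beside 19.1% of all genes at 9 months and 11.4% at 3 months.

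Of 12 further subunits and cofactors, 6 were higher in 9mTSCmKO. They included Pomp, the chaperone of core assembly (0.71 ± 0.20, adjusted p = 0.0041), Akirin2, the nuclear import factor of proteasomes (0.91 ± 0.14, 2.87e-06), and Usp14, a proteasome-bound deubiquitinase (0.52 ± 0.12, 0.00083). Of 9 genes for the segregase p97 and ubiquitin shuttle factors, 4 were higher and 2 lower in 9mTSCmKO. Vcp (p97) rose by 0.68 ± 0.15 (0.00041) and Faf1, a p97 adaptor, was lower (-0.57 ± 0.10, 9.53e-06). Of 6 ubiquitin and E1 genes, 1 was called. As shares these were 50% of the cofactors higher, 44.4% of the p97 list higher and 22.2% lower, and 16.7% of the ubiquitin list higher, beside 19.1% and 18.9% of all genes, so the last 2 shares were near the background. Within the members, the assembly chaperones gave 1 call of 7 (14.3%; Psmd10, 0.45 ± 0.17, 0.040), and the Psmg genes gave no call in either genotype comparison.

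With rapamycin 8 proteasome genes were higher and 8 lower in 9mTSCmKO+RM than in 9mTSCmKO. The balance moved with single libraries, to 10 higher and 5 lower without 9mTSCmKO replicate 3, 6 and 11 without 9mTSCmKO replicate 1 or 2, and 7 and 12 without 9mTSCmKO+RM replicate 1. It was 4 and 5 with only these 2 groups in the fit, and 8 and 7 without the 6 libraries. Of the markers, 3 of 6 for muscle fiber were higher and 1 lower, 2 of 10 for leukocytes were lower (median log2 fold change -0.74) and 1 of 4 for tendon was lower (median -1.02). Of the endothelial markers 1 of 4 was higher and 1 lower, and 1 of 2 satellite cell markers was higher. The leukocyte sum was 96.3 to 233 CPM in 9mTSCmKO and 88.5 to 118 CPM in 9mTSCmKO+RM, and the tendon sum 58.6 to 135 and 26.2 to 76.3 CPM. The part of these markers in the result was not tested. These are 17.4% of the members each way, near the 15.8% of all genes that were higher and the 16.8% that were lower. The median was -0.20 over the members and -0.04 over all genes. The lower genes were Psmb5, Psmb4, Psma2, Psma3, Psmd8, Psmd14, Psmc1 and the immunoproteasome gene Psmb10. The higher genes were Psmd4, Psmd2, Psmd6, Psmd7, Psmd11, Psmc2, Psma7 and Psme3. Mean summed levels of the beta ring were 1749 ± 253 TPM in 9mTSCmKO and 1410 ± 91.9 TPM in 9mTSCmKO+RM, and those of the 19S base 2179 ± 247 and 2451 ± 149 TPM (SD, n = 5). The libraries overlapped for both parts (1475 to 2138 and 1281 to 1505 TPM, 1743 to 2326 and 2253 to 2670 TPM). The lowest base sum was that of 9mTSCmKO replicate 1. Of 7 beta genes 0 were higher and 2 lower, and of 9 base genes 3 were higher and 1 lower. The sums were not tested.

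Psmb5 was 78.4, 68.8, 60.6, 76.6 and 74.8 CPM in 9mTSCmKO+RM, below every 9mTSCmKO library (log2 fold change -0.74 ± 0.11, adjusted p = 1.32e-06). Against 9mCON its difference was 0.10 ± 0.11 (adjusted p = 0.54). Psmd8 was 316, 273, 275, 280 and 292 CPM, below every 9mTSCmKO library (-0.48 ± 0.12, 0.0028). It was still above every 9mCON library (0.54 ± 0.12, 0.00093). Psmb4, a beta ring subunit without a proteolytic site, was 111, 109, 98.6, 116 and 106 CPM against 140, 131, 205, 147 and 154 CPM, also apart (-0.52 ± 0.13, 0.0015). Psmd14 had -0.66 ± 0.21 (0.016), a call lost without 9mTSCmKO replicate 3 (-0.41, adjusted p = 0.12).

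Psmd4 (Rpn10), a ubiquitin receptor of the base, rose with rapamycin in both genotypes at both ages. In 9mTSCmKO+RM it was 476, 364, 331, 396 and 401 CPM against 179, 216, 282, 211 and 225 CPM in 9mTSCmKO, without overlap (0.82 ± 0.13, adjusted p = 3.32e-06). In 9mCON+RM it was 340, 302, 241, 221 and 248 CPM against 146, 173, 152, 164 and 160 CPM in 9mCON (0.77 ± 0.13, 9.38e-05). The groups were also apart at 3 months, with 283 ± 38.6 against 170 ± 25.7 CPM in TSCmKO (0.73 ± 0.13, 2.62e-05) and 213 ± 19.9 against 147 ± 14.5 CPM in CON (0.54 ± 0.13, 0.028), a call that was lost in 6 of 10 fits without 1 library and with no low-count filter (adjusted p = 0.055). Since vehicle TSCmKO already exceeded CON at 9 months (0.48 ± 0.13, 0.0022), 9mTSCmKO+RM had the highest mean of the 8 groups, 393 ± 54.0 CPM.

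**Figure D3:**
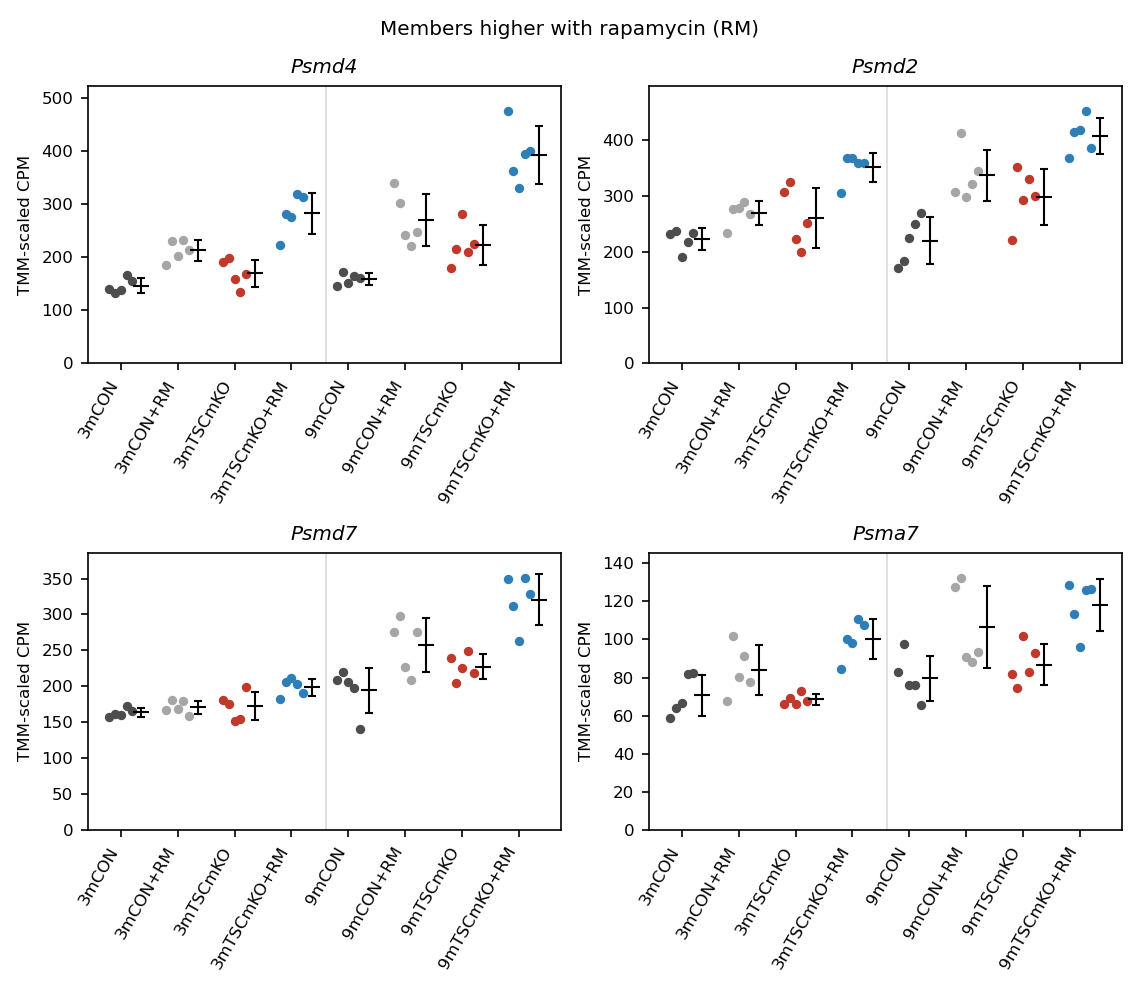
TMM-scaled CPM of Psmd4, Psmd2, Psmd7 and Psma7 in every library (points) of the 8 groups on the horizontal axis, with the mean and SD of 5 libraries. Rapamycin groups (light grey and blue) of Psmd4 lie above their vehicle groups (dark grey and red) at both ages and in both genotypes.

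The other genes that were higher with rapamycin in 9mTSCmKO changed by less. Psmd2 (Rpn1), a scaffold of the base, was 221, 352, 292, 330 and 300 CPM on vehicle and 369, 415, 419, 452 and 386 CPM with rapamycin, apart (0.45 ± 0.13, adjusted p = 0.0068). Psmd7 (Rpn8), the lid partner of Psmd14, was 227 ± 17.6 and 321 ± 36.0 CPM, also apart (0.50 ± 0.11, 0.00038). Psma7, an alpha ring subunit, was 86.7 ± 10.6 and 118 ± 13.6 CPM, with overlap (0.44 ± 0.13, 0.0059). Psmd11 was called at 0.29 ± 0.11 (0.041), a call lost in 5 of 10 fits without 1 library. These fits left out 9mTSCmKO replicate 1, 2 or 5 or 9mTSCmKO+RM replicate 4 or 5.

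In 9mCON mice 8 members were higher and 0 lower with rapamycin by edgeR, where 0 were lower at an unadjusted p under 0.05 too, and neither DESeq2 nor limma called one lower. Of all genes 5.03% were higher and 6.82% lower. The 8 were Psmd4, Psmd2, Psmd7, Psmd11, Psmc2, Psmc3, Psma7 and Psme3. Psmd2 was 171, 184, 225, 250 and 271 CPM in 9mCON and 307, 414, 298, 322 and 345 CPM in 9mCON+RM, apart (0.61 ± 0.13, adjusted p = 0.0014). Of these 8 genes 7 (87.5%) were also among the 8 that were higher with rapamycin in 9mTSCmKO (87.5%), and the 2 comparisons share no library. The exceptions were Psmc3, called in 9mCON, and Psmd6, called in 9mTSCmKO. The overlap over all genes was not counted, so it cannot be said whether this share is particular to the members. In 9mCON the call of Psma7 (0.42 ± 0.13, 0.023) was lost without 9mCON replicate 5 or 9mCON+RM replicate 1 or 2 (0.33 to 0.36), and that of Psmd11 (0.39 ± 0.11, 0.016) without 9mCON+RM replicate 2 (0.35, adjusted p = 0.057). The count fell to 5 without 9mCON replicate 3, to 4 without 9mCON replicate 5 or 9mCON+RM replicate 1, and to 3 without 9mCON+RM replicate 2, and was 6 without the 6 libraries. With only these 2 groups in the fit it was 2, with Psmd7, Psma7 and Psmd11 among the calls lost (adjusted p of 0.16, 0.14 and 0.089), and limma gave 4. In the same comparison all 4 fibroblast, all 4 tendon and 7 of 10 leukocyte markers were lower. Their sums were 769 to 1480, 83.0 to 497 and 82.3 to 195 CPM in 9mCON and 109 to 537, 25.1 to 60.6 and 49.5 to 102 CPM in 9mCON+RM, and their part in the result was not tested.

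Whether rapamycin acted differently by genotype was tested as an interaction. At 9 months it passed for 2 members, both in the lower direction, or 4.35% of them, near the 4.87% of all genes that passed. For Psmb5 the rapamycin effect in TSCmKO minus that in CON was -0.62 ± 0.15 (adjusted p = 0.012), from 0.60-fold in TSCmKO and 0.92-fold in CON. For Psmd8 it was -0.63 ± 0.18 (0.030), from 0.72-fold and 1.11-fold. The Psmd8 call was lost without any 1 of 6 libraries (9mCON replicate 1 or 3, 9mCON+RM replicate 1, 9mTSCmKO replicate 3, 9mTSCmKO+RM replicate 2 or 3), with -0.52 to -0.61 and adjusted p of 0.050 to 0.067. With only the groups compared in the fit neither passed (Psmb5 -0.62, adjusted p = 0.078, and Psmd8 -0.62, 0.13). Psmd4 showed 0.06 ± 0.18 (0.89), Psmd2 -0.17 ± 0.18 (0.65) and Psmd7 0.10 ± 0.15 (0.76). None passed, which does not show equal effects, since differences larger than these errors can also fail to pass.

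**Figure D4:**
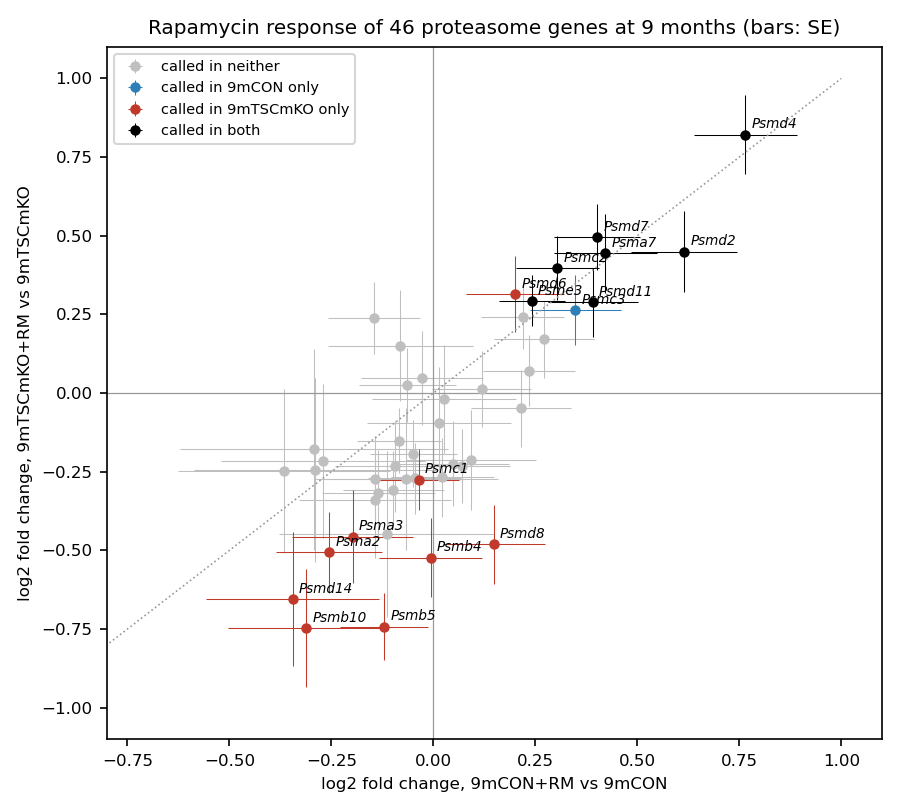
Log2 fold change with rapamycin at 9 months in CON (horizontal axis) and in TSCmKO (vertical axis) for the 46 members, with SE bars and a dotted line of equal change. The 7 members called in both (black) lie near the line at the upper right, and Psmb5, Psmd8 and Psmb4 lie below it with values near 0 in CON.

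At 3 months rapamycin left 5 members higher and 5 lower in TSCmKO, or 10.9% each way, near the 10.6% of all genes that were higher and the 13% that were lower. Upper-quartile scaling gave 6 higher and 3 lower, and limma on TPM gave 9 and 3. The higher genes were Psmd4, Psmd2, Psmd11, Psmc2 and Psma7, all of which were called higher at 9 months too. The call of Psmd2 (0.43 ± 0.13, 0.012) was lost without 3mTSCmKO replicate 4 (0.36, adjusted p = 0.052). Of 6 muscle fiber markers 3 were higher and 1 lower, with sums of 80700 to 120000 CPM in 3mTSCmKO and 121000 to 148000 CPM in 3mTSCmKO+RM, and 1 of 4 fibroblast and 1 of 10 leukocyte markers were higher. Their part in the result was not tested. The lower genes were Psme4, Psmd8, Psmb5, Psmc1 and Psmc6. Psme4 had the largest fall of all members, to 713, 561, 785, 655 and 772 CPM in 3mTSCmKO+RM, below every 3mTSCmKO library (-1.16 ± 0.23, adjusted p = 0.00019). At 9 months the same gene gave -0.27 ± 0.23 (0.37). Psmd8 was 205 ± 19.1 CPM with rapamycin and 316 ± 23.9 CPM without, apart (-0.63 ± 0.12, 0.00022). Psmc6 lost its call in 8 of 10 fits without 1 library, and Psmb5 (-0.34 ± 0.11, 0.016) lost it without 3mTSCmKO+RM replicate 3 (-0.30, adjusted p = 0.052).

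In 3mCON mice Psmd4 was the 1 member called with rapamycin, where 0.362% of all genes were higher and 0.318% lower. This call was lost without any 1 of 6 libraries (3mCON replicate 1, 2 or 3, 3mCON+RM replicate 2, 4 or 5), with 0.51 to 0.54 and adjusted p of 0.052 to 0.097. The interaction of rapamycin and genotype at 3 months passed for 0 members by edgeR, while 3 had an unadjusted p under 0.05, DESeq2 and limma called 1 each, and 3.45% of all genes passed. The nearest was Psme4 (-1.05 ± 0.32 SE, adjusted p = 0.059).

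Set against untreated controls, 16 members were higher and 1 lower in 9mTSCmKO+RM than in 9mCON, where 15.7% of all genes were higher and 16.2% lower, and without the 6 libraries 22 were higher and 2 lower. Lower too were 4 of 4 fibroblast, 4 of 4 tendon, 3 of 10 leukocyte, 1 of 3 adipocyte and 1 of 3 Schwann cell markers (median -1.39, -2.77, -0.43, -1.01 and -0.74). Of 6 muscle fiber markers 1 was higher and 1 lower (log2 fold change from -1.13 to 0.674). The part of these markers in the result was not tested. Psmd4 (1.31 ± 0.13, adjusted p = 2.98e-10) and Psmd11 (1.06 ± 0.11, 1.68e-09) lay wholly above 9mCON, and Psme1 remained the lower one (-0.54 ± 0.11, 0.00029). In 3mTSCmKO+RM 9 members were higher than in 3mCON and 0 lower by edgeR, with 1 lower at an unadjusted p under 0.05, and 8.98% of all genes were higher and 7.71% lower. Of the markers, 2 of 10 for leukocytes were higher (median 0.62), and 1 of 6 for muscle fiber was higher and 1 lower, and their part in the result was not tested. Without the 6 libraries, of which only 3mCON replicate 5 is in this comparison, 14 were higher.

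Between the ages, 25 members were higher and 1 lower in 9mTSCmKO than in 3mTSCmKO, with 19.1% of all genes higher and 18.3% lower. Higher were 5 of 7 alpha, 5 of 7 beta, 5 of 9 base and 7 of 8 lid genes. Psma2 rose by 0.83 ± 0.13 (adjusted p = 6.91e-06), Psmb4 by 0.82 ± 0.13 (6.10e-06), Psmb1 by 0.73 ± 0.12 (1.77e-05) and Psmb5 by 0.71 ± 0.11 (4.13e-06), each without overlap. Psme4 was the lower one (-0.90 ± 0.23, 0.0021). Without the 6 libraries, of which only 9mTSCmKO replicate 3 is in this comparison, 21 were higher and 1 lower. Lower too were 4 of 4 tendon, 3 of 3 adipocyte, 2 of 2 erythroid, 3 of 4 fibroblast and 3 of 4 endothelial markers (median -2.72, -2.61, -2.25, -1.22 and -0.46). Their sums were 156 to 471, 4.73 to 30.7, 144 to 2860, 747 to 1400 and 286 to 314 CPM in 3mTSCmKO and 58.6 to 135, 1.38 to 4.96, 74.8 to 354, 296 to 910 and 195 to 296 CPM in 9mTSCmKO. Of the other lists, 3 of 6 muscle fiber markers were lower (median -0.39), 3 of 10 leukocyte markers were higher and 1 lower, and 1 of 3 Schwann cell markers was higher. The part of these markers in the result was not tested. By the labels, library inserts were longer at 9 months (223 to 308 nt) than at 3 months (175 to 239 nt, 1 library without a value), and with insert size as a term the count was 10, with Psma7, Psmb6 and Psme4 among the calls lost (adjusted p of 0.21, 0.051 and 0.10). It was 15 without 9mTSCmKO replicate 3. In CON 2 members, Psmb1 (0.47 ± 0.12, 0.047) and Psmc1 (0.38 ± 0.10, 0.047), were higher at 9 months and 0 were lower, where 0.679% of all genes were higher and 0.34% lower. With insert size as a term this count was 0, and it ran from 0 to 9 in fits without 1 library.

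The immunoproteasome was noted apart. Its summed level was 25.9 ± 6.13 TPM in 9mCON, 34.9 ± 8.51 in 9mTSCmKO, 20.1 ± 3.39 in 9mCON+RM and 21.9 ± 2.95 in 9mTSCmKO+RM (SD, n = 5). Relative to the summed Psmb5, Psmb6 and Psmb7 this was 4.49 ± 0.96% in 9mCON and 4.33 ± 1.22% in 9mTSCmKO, and the means of the 8 groups ran from 3.55% in 9mTSCmKO+RM to 5.39% in 3mTSCmKO. Psmb10 made up most of the immunoproteasome sum. Its mean over the 40 libraries was 20.5 TPM, beside 3.94 for Psmb8 and 2.04 for Psmb9.

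Psmb8 and Psmb9 were not called in any of the 13 comparisons. Psmb8 was 7.20, 5.21, 2.27, 4.97 and 4.03 CPM in 9mCON and 3.59, 2.65, 5.64, 3.81 and 3.59 CPM in 9mTSCmKO, with wide overlap (-0.30 ± 0.26, adjusted p = 0.36). Psmb9 was 1.47 ± 0.58 and 1.42 ± 0.43 CPM (-0.04 ± 0.29, 0.92). At 7 to 63 counts per library, changes of Psmb9 larger than such errors could also go uncalled. Psmb10 differed from both: it was 9.04, 11.1, 4.95, 7.21 and 7.90 CPM in 9mCON, 14.5, 9.94, 16.0, 8.14 and 9.97 CPM in 9mTSCmKO and 10.7, 5.99, 4.95, 6.27 and 7.20 CPM in 9mTSCmKO+RM. The rise in 9mTSCmKO (0.54 ± 0.19, 0.020) was lost without 9mCON replicate 3 or 9mTSCmKO replicate 1 or 3 (0.41 to 0.46, adjusted p of 0.057 to 0.086). The fall with rapamycin (-0.75 ± 0.19, 0.0022) was called in all 10 fits without 1 library.

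**Figure D5:**
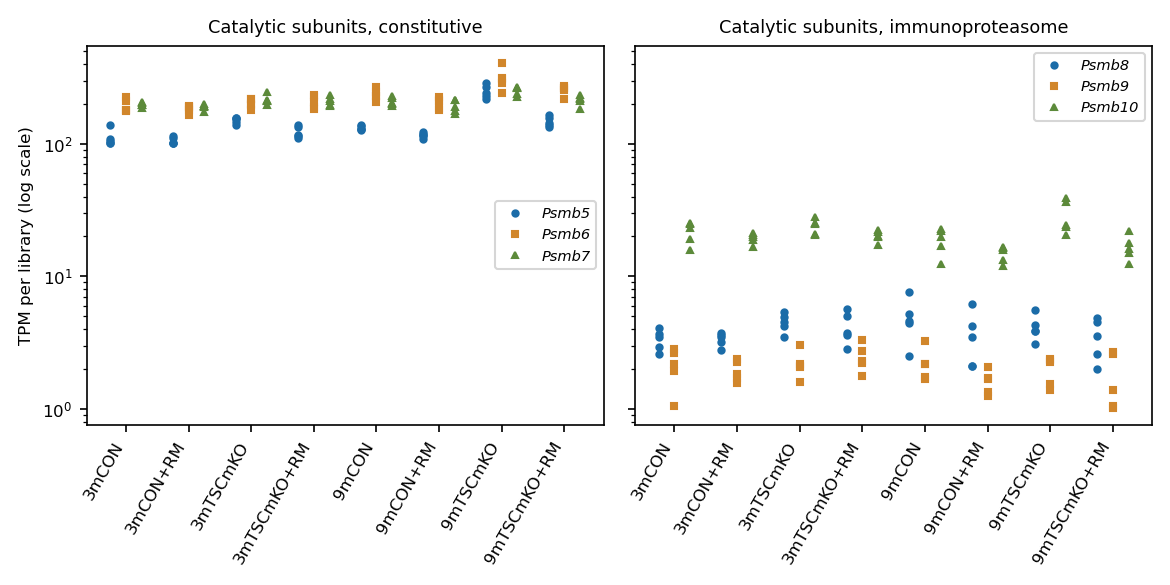
TPM per library (log axis) of the constitutive proteolytic subunits Psmb5, Psmb6 and Psmb7 (left) and of their immunoproteasome counterparts Psmb8, Psmb9 and Psmb10 (right) in the 8 groups on the horizontal axis. All points of the left panel lie above all points of the right panel, and Psmb10 is the highest of the 3 immunoproteasome genes.

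Of 16 interferon and antigen-processing genes set beside them, 3 were higher in 9mTSCmKO (Ifit1, Irf7, Isg15) and 3 lower, among them Nlrc5 and Gbp2. Either share (18.8%) was near that of all genes (19.1% and 18.9%). Irf7, a regulator of interferon genes, rose by 1.45 ± 0.28 (adjusted p = 7.90e-05). Nlrc5, a transactivator of class I antigen-presentation genes, was lower (-1.09 ± 0.34, 0.0098). With rapamycin 6 of the 16 (37.5%) were lower in 9mTSCmKO and 5 of 16 (31.2%) in 9mCON, where 16.8% and 6.82% of all genes were lower. The leukocyte markers summed to 82.3 to 195 CPM in 9mCON and 96.3 to 233 CPM in 9mTSCmKO. With rapamycin they summed to 49.5 to 102 CPM in 9mCON+RM, where 7 of 10 were lower, and to 88.5 to 118 CPM in 9mTSCmKO+RM, where 2 of 10 were lower and all 10 had a negative log2 fold change. Their part in the levels of Psmb8, Psmb9 and Psmb10 and of the interferon genes, and in the fall of Psmb10 with rapamycin, was not tested.

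The genes most like Psmb5 and Psmb8 over the 40 libraries were found by Pearson r of log2 CPM, given as a description since the libraries share groups and composition. For Psmb5 they were Cst6 (0.938), Ostf1 (0.929), Sqstm1 (0.925), which encodes the autophagy receptor p62, Ypel5 (0.923) and Gsto1 (0.920). Among the members its r ran from -0.373 with Psme1 to 0.907 with Psmb4, with a median of 0.574. For Psmb8 they were the major histocompatibility genes H2-D1 (0.764), H2-K1 (0.751), H2-Q5 (0.747) and H2-Q7 (0.71), and Gm8909 (0.692). Its median r with the other members was 0.118, and the nearest of them was Psmb9 (0.511), which lies 9957 bases from it on chromosome 17.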

How the data were processed

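Poly(A) RNA of whole EDL lysates was sequenced in 40 libraries. The authors trimmed reads with Cutadapt 1.9.1, pseudoaligned them with kallisto 0.43.1 to Ensembl transcripts of GRCm38, gave a read that hit several transcripts to each in equal parts, and deposited estimated counts and TPM per gene. The deposited estimated counts are whole numbers. The TPM are normalised for length and depth. The main test was edgeR 4.0.16 (robust quasi-likelihood, TMM scaling) on the 8 group means of all 40 libraries, for genes at 1 CPM or more in 5 or more libraries, with 13 comparisons (3 of them interactions) and Benjamini-Hochberg adjustment over 13543 genes at 0.05. CPM are scaled by TMM. DESeq2 1.42.0, limma 3.58.1 on log2(TPM + 1) and other settings were alternatives. The script was tested on simulated data.

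Genes described one by one were the proteolytic and immunoproteasome subunits, Psme1, Psme2, Psme4, Psmd11, and members that rose or fell most in each of 4 comparisons. These were TSCmKO with CON and rapamycin with vehicle in TSCmKO, at each age. Only called members were ranked, with at most 3 taken in each direction. Other members were named from values already seen. The members and lists were chosen with earlier results of these data known. Of the 47 members, 39 share no 31-base stretch with protein-coding transcripts of other listed genes. Psmg3 shares 23.6% of its stretches with Gm26938, so its counts are uncertain. Errors cover the spread between these samples. Psmb11 was not analysed here. The values of 1 gene of the interferon list are not reported here.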

Additional observations from a re-analysis of the deposited data

Results flagged for a closer look

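Among 136 combinations of a described gene and a group, 9 had 1 library apart from the other 4 by Dixon's criterion (0.71 for 5 samples), which chance flags in about 1 of 20. Psmd14 was high in 9mCON replicate 2 (264.6 CPM, others 107 to 130), in 9mCON+RM replicate 1 (190.1, others 94.4 to 107) and in 9mTSCmKO+RM replicate 1 (224.3, others 131 to 143). Psmd8 was high in 9mCON+RM replicate 1 (289.2 CPM). Psme1 was high in 3mCON+RM replicate 2 (27.85 CPM), 9mTSCmKO replicate 3 (23.12) and 9mTSCmKO+RM replicate 1 (32.24). Psmd2 was low in 3mTSCmKO+RM replicate 1 (305.4 CPM) and Psmd7 in 9mCON replicate 5 (140.6). All libraries named here as high, for each of these genes, are among the 6 in which most of the members had their group's highest value.

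The test of a different rapamycin effect in the genotypes at 9 months passed for Psmb5 (-0.62 on the log2 scale, edgeR adjusted p = 0.012) and for Psmd8 (-0.63, adjusted p = 0.030), which is 4.35% of the members beside 4.87% of all genes. With only the groups compared in the fit neither passed (adjusted p = 0.078 and 0.13), and Psmd8 also lost its call in 6 of 20 fits without 1 library and with no low-count filter (0.053). The cause was not tested.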

How the results depend on the processing

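Of 65 calls of the 17 described genes, 38 held under every alternative and every fit without 1 library, 20 were lost in some fit without 1 library, 23 under another setting, and 0 reversed (cause not tested). Counts of called members follow in the order of each setting. With only the groups compared in the fit, which have fewer samples, they were 12 (9mTSCmKO vs 9mCON), 16 (3mTSCmKO vs 3mCON and 3mTSCmKO+RM vs 3mCON), 9 (9mTSCmKO+RM vs 9mTSCmKO), 2 (9mCON+RM vs 9mCON, 3mCON+RM vs 3mCON and the rapamycin interaction at 3 months) and 0 (that interaction at 9 months, 9mCON vs 3mCON). Upper-quartile scaling gave 5 for 3mTSCmKO vs 3mCON and for 9mCON+RM vs 9mCON. With no low-count filter there were 0 for 3mCON+RM vs 3mCON and 9mCON vs 3mCON and 1 for the rapamycin interaction at 9 months. Insert size as a term gave 0 for 9mCON vs 3mCON and 10 for 9mTSCmKO vs 3mTSCmKO. DESeq2 gave 1 for the genotype effect at 9 vs 3 months and for the rapamycin interaction at 3 months. Limma on TPM gave 2 and 1 for these, 4 for 9mCON+RM vs 9mCON, 14 for 3mTSCmKO+RM vs 3mCON and 0 for 9mCON vs 3mCON. Leaving out the 6 libraries high across members, chosen after seeing the data from the members' own values, gave 19 for 3mTSCmKO vs 3mCON, 14 for 3mTSCmKO+RM vs 3mCON and 1 for 9mCON vs 3mCON.

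Without 1 library the counts ran from 18 to 27 (9mTSCmKO vs 9mCON), 5 to 11 (3mTSCmKO vs 3mCON), 0 to 1 (genotype effect at 9 vs 3 months), 14 to 19 (9mTSCmKO+RM vs 9mTSCmKO), 7 to 10 (3mTSCmKO+RM vs 3mTSCmKO), 3 to 8 (9mCON+RM vs 9mCON), 0 to 1 (3mCON+RM vs 3mCON), 1 to 4 (rapamycin interaction at 9 months), 0 to 1 (at 3 months), 15 to 23 (9mTSCmKO+RM vs 9mCON), 7 to 9 (3mTSCmKO+RM vs 3mCON), 0 to 9 (9mCON vs 3mCON) and 15 to 30 (9mTSCmKO vs 3mTSCmKO). The replicate block gave 1 for the rapamycin interaction at 3 months and 0 for 9mCON vs 3mCON and moved no other count by over 1.5 times. No comparison had all 5 same-numbered pairs correlated above 0.1 (r from -0.363 to 0.289). No pairing by number was thus found, though this check cannot exclude it.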
